A study of Mus musculus with 6 samples.

Results

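The opposite-strand miRNA assays were the 115 assays, of 750 miRNA assays in the table, whose name carries the sign #. They were chosen by that sign alone, whatever the species prefix: 64 had the mouse prefix mmu, 37 the human prefix hsa and 14 the rat prefix rno. The assays were read by TaqMan low-density array, a quantitative PCR in small wells spread over 2 cards, and all 115 were on card B, beside 260 other miRNA assays. The samples were monocytes isolated freshly from 3 DBA/1 mice, an inbred strain, and each mouse gave a Ly6Chigh (classical) and a Ly6Clow (non-classical) sample, 6 samples in all. No treatment or genetic change was listed, and 10 ng of total RNA per sample was reverse transcribed. The labels give no age, sex or sorting purity, and they name only Pool A of the primers although both cards hold values.

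A miRNA is cut from a hairpin as a short duplex. Usually the strand called the guide is kept by an Argonaute protein and directs it to target mRNAs, while its partner, the passenger or star strand, is mostly degraded. Some hairpins give stable RNA from both arms. The sign # was the older name for the arm thought to be the lesser product, and later names say only which arm of the hairpin, 5p or 3p, a miRNA comes from. The seed, bases 2 to 8 of the mature miRNA, largely sets which mRNAs it pairs with, so the arms of a hairpin are in effect different regulators.

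The sequences below are those of the hairpins on which the results turn, with the opposite arm first and the main arm after it. They are the mouse mature miRNAs of RefSeq, build GRCm38.p6, also where the assay has a human or rat prefix, and the primer sequences of the assays were not used here. Arms were matched to assays by the older naming convention. Of 14 opposite arms looked up, 13 were found, and mmu-miR-19a-5p is only named. Capitals mark the seed. The first set belongs to the miR-17 cluster and a related cluster, from which the study lists some members, miR-17 and miR-18a among them, for monocyte subsets:
mmu-miR-17-3p (opposite strand): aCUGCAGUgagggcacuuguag
mmu-miR-17-5p (main strand): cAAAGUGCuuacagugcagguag
mmu-miR-20a-3p (opposite strand): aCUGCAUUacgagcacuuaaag
mmu-miR-20a-5p (main strand): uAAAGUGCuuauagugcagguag
mmu-miR-18a-3p (opposite strand): aCUGCCCUaagugcuccuucug
mmu-miR-18a-5p (main strand): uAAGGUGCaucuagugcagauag
mmu-miR-93-3p (opposite strand): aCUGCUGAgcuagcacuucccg
mmu-miR-93-5p (main strand): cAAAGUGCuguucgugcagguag
mmu-miR-19a-3p (main strand): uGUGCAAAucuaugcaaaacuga

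The next hairpins are those with an opposite-strand signal in most or all samples, or an opposite strand read earlier than the main strand:
mmu-miR-27a-5p (opposite strand): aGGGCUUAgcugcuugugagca
mmu-miR-27a-3p (main strand): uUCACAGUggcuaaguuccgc
mmu-miR-744-3p (opposite strand): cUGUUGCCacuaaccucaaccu
mmu-miR-744-5p (main strand): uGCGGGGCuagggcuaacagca
mmu-miR-503-3p (opposite strand): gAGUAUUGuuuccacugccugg
mmu-miR-503-5p (main strand): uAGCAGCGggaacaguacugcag
mmu-miR-31-3p (opposite strand): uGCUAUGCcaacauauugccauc
mmu-miR-31-5p (main strand): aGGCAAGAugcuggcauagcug
mmu-miR-376b-5p (opposite strand): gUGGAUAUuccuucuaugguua
mmu-miR-376b-3p (main strand): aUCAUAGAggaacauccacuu
mmu-miR-154-3p (opposite strand): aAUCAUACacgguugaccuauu
mmu-miR-154-5p (main strand): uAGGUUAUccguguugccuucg
mmu-miR-183-3p (opposite strand): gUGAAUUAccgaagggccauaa
mmu-miR-183-5p (main strand): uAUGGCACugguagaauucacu
mmu-miR-872-3p (opposite strand): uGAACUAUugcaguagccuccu
mmu-miR-872-5p (main strand): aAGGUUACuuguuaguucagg
mmu-miR-148a-5p (opposite strand): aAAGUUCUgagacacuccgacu
mmu-miR-148a-3p (main strand): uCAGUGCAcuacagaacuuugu

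All 13 opposite arms had different seeds, and no opposite arm shared the seed of its own main arm. The opposite arms of miR-17, miR-20a, miR-18a and miR-93 began with the same 5 bases, ACUGC, yet they carried 4 different seeds. The main arms of miR-17, miR-20a and miR-93, by contrast, shared 1 seed, AAAGUGC, while that of miR-18a had another, AAGGUGC.

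The Ct is the PCR cycle at which an assay's signal crosses its threshold. A lower Ct means more template, and 1 cycle is about a doubling. An assay was called detected when its Ct was under 35, and reactions without signal are listed at 40. Of the 690 opposite-strand reactions, 138 were under 35, 11 lay from 35 to under 40 and the rest were listed at 40. Most detected values sat close to whole cycles. Between 83.3% and 100% of a sample's detected opposite-strand values were within 0.05 cycles of a whole number, except in the Ly6Clow sample of mouse 1, where the share was 20.8%. Differences finer than about a cycle therefore could not be read.

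The checks of the labels came from the other card. On card A, miR-223 and both miR-142 strands, used here as myeloid markers, were under 35 in 5 of 6 samples. They were listed at 40 in the Ly6Chigh sample of mouse 1. How specific they are to myeloid cells was not tested, so they do not check the monocyte label on their own. A human-prefix miR-223 assay on card B was at 40 in all 6 samples. Of the markers of other cells, miR-451 and miR-126-3p (red cells and platelets) were under 35 in the same 5 samples as miR-223 on card A. The red cell markers miR-144 and miR-486 were under 35 in none. The lymphocyte markers, which monocytes also hold, were miR-150 and miR-181a, under 35 in all 6 samples, and miR-342-3p, under 35 in 5. The epithelial markers ranged widely, with mmu-miR-200c and mmu-miR-203 under 35 in all 6 samples, mmu-miR-200b in 5, hsa-miR-200b and mmu-miR-141 in 4, mmu-miR-200a in 1, and hsa-miR-200c and mmu-miR-205 in none. Their part in the results was not tested. The card A profile of the Ly6Chigh sample of mouse 1 stands apart, which touches the main-strand values below but no Ct of the 115 assays. Through the limma fit over both cards it also enters the SEs of the tested opposite strands. On card B the plant control assay, which has no mouse target, was read at a Ct of 33.97 in the Ly6Clow sample of mouse 2 and at 40 in the other samples. That is the sample with the most opposite-strand assays detected, and the part of such background in that number was not tested.

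Opposite-strand miRNAs were found in every sample, and the mice stood in the same order in both subsets. In Ly6Chigh samples 16, 30 and 12 of the 115 assays were detected in mice 1, 2 and 3. In Ly6Clow samples the numbers were 24, 49 and 7. Mouse 2 had the most and mouse 3 the fewest in both subsets, and the subsets overlapped. The means were 19.3 ± 9.45 (SD, n = 3) in Ly6Chigh and 26.7 ± 21.1 (SD, n = 3) in Ly6Clow samples, a difference of -7.33 assays (2-sided exact permutation p = 0.7, where 3 against 3 samples cannot go below 0.1). In such bulk samples, fewer cells holding a miRNA and less of it per cell cannot be told apart. Without the Ly6Clow sample of mouse 2 the difference turned to 3.83 assays more in Ly6Chigh.

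The other miRNA assays of card B followed the same order. They were detected in 44, 74 and 36 cases in Ly6Chigh and in 56, 99 and 24 cases in Ly6Clow samples. Opposite-strand assays thus made up 22.6% to 33.1% of the detected miRNA assays of card B, the lowest and the highest share both in Ly6Clow samples, of mice 3 and 2. The card itself holds 115 opposite-strand assays beside 260 others. Between the subsets no difference in these shares was found (2-sided exact permutation p = 0.6), in a test that ignores the pairing by mouse. Card A kept the order of the mice only in Ly6Clow samples, where 33.9%, 38.9% and 30.7% of its miRNA assays were detected in mice 1, 2 and 3. In Ly6Chigh samples the card A values were 29.1%, 29.9% and 34.4%, with mouse 3 the highest. The order in both subsets was thus seen on card B alone and cannot be read as a property of the mice.

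**Figure D1:**
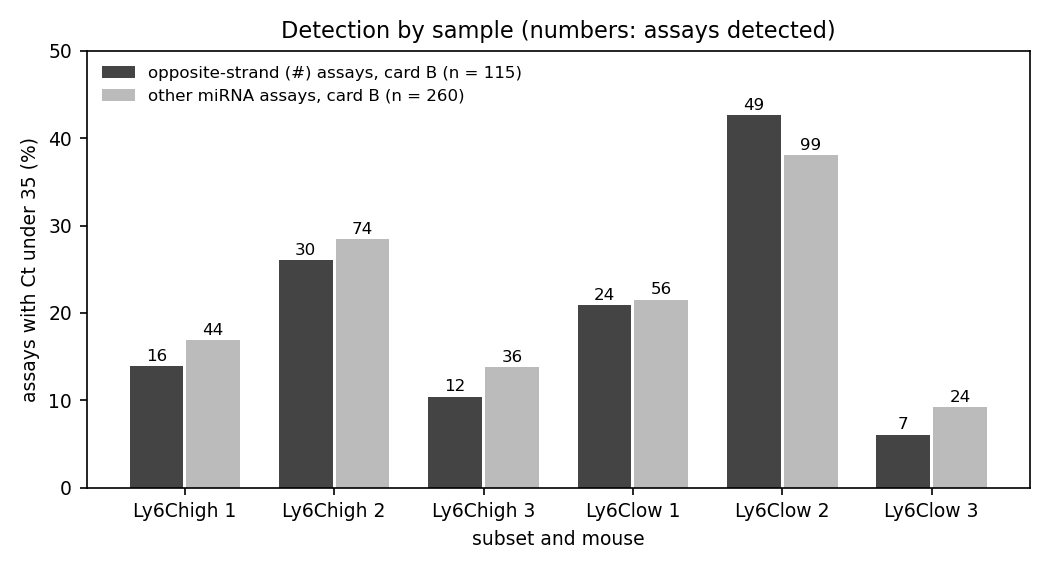
Percent of miRNA assays on card B with a Ct under 35 in each sample, for the 115 opposite-strand assays (dark bars) and the 260 other assays (light bars), with the number of assays detected above each bar. The bars of mouse 2 are the tallest and those of mouse 3 the lowest within each subset, for both kinds of assay.

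Over the 6 samples, 61 opposite-strand assays were never detected, and 59 of these were listed at 40 throughout. A further 54 were detected at least once, 47.0% of the 115, against 45.0% of the other card B assays. In at least 3 samples 21 were detected (18.3% against 20.4%), and in all 6 samples 5 were detected (4.35% against 5.38%). At each of these numbers of samples the share lay close to that of the neighbours on the card. Without the Ly6Clow sample of mouse 2, a choice made after seeing the data, 42 opposite-strand assays (36.5%) and 104 of the 260 others were detected at least once.

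Single detections came mostly from 1 sample. Of the 16 assays detected in exactly 1 sample, 12 were detected in the Ly6Clow sample of mouse 2, against 13 of 26 among the other card B assays. Of the 17 detected in exactly 2 samples, 12 were detected in both samples of mouse 2. No assay was detected in all 3 samples of a subset and in none of the other subset. Ly6Clow samples alone held 17 of the 54 assays and Ly6Chigh samples alone held 2. Of the 17, 12 were those detected only in the Ly6Clow sample of mouse 2. Within mouse 1, 14 assays were detected in both subsets, 2 in Ly6Chigh alone and 10 in Ly6Clow alone. In mouse 2 the numbers were 29, 1 and 20, whereas in mouse 3 they were 6, 6 and 1, so the lean toward Ly6Clow was not found in the third mouse. The other card B assays also had more detections in the Ly6Clow sample in mice 1 and 2 and fewer in mouse 3, as given above. How many of them were found in a single subset is not given here, so the lean cannot be read as particular to opposite strands.

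The samples of a mouse also detected more of the same assays. Of the opposite-strand assays detected in either sample of a mouse, 53.8%, 58.0% and 46.2% were detected in both samples for mice 1, 2 and 3. Between samples of the same subset from different mice the shared part was 14.3% to 40.4%, and between samples that differed in both it was 15.6% to 42.1%. These shares also depend on how many assays each sample detected, and how the cards of a mouse were handled is not given in the sources used here.

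The 5 opposite strands detected in all 6 samples were those of miR-19a, miR-20a, miR-17, miR-27a and miR-744. The first 3 belong to the miR-17 to miR-92 cluster, a set of growth-promoting miRNAs transcribed as a single precursor, and miR-27a lies with miR-23a and miR-24 on another precursor. The Ct of mmu-miR-19a# was 26.98, 27.98 and 25.99 in the Ly6Chigh samples of mice 1, 2 and 3, and 25.22, 24.95 and 29.99 in the Ly6Clow samples. The Ct of rno-miR-20a# was 29.97, 29.96 and 26.95 in Ly6Chigh and 25.01, 25.95 and 28.95 in Ly6Clow samples. For mmu-miR-17# it was 31.98, 32.96 and 30.98 in Ly6Chigh and 29.03, 28.98 and 31.98 in Ly6Clow samples. For these 3 assays the Ly6Clow sample had the lower Ct in mice 1 and 2 and the higher Ct in mouse 3.

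The Ct of hsa-miR-27a# was 29.97, 29.95 and 26.94 in Ly6Chigh and 25.19, 25.95 and 28.95 in Ly6Clow samples, close to that of rno-miR-20a# in every sample. The Ct of hsa-miR-744# was 32.93, 29.99 and 34.02 in Ly6Chigh and 31.68, 28.97 and 34.01 in Ly6Clow samples. It was the latest of the 5 in mouse 3, while in the Ly6Chigh sample of mouse 2 it came before mmu-miR-17#.

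A pair of assays missed only the Ly6Clow sample of mouse 3. The Ct of mmu-miR-31#, from a hairpin known for its part in tumour invasion, was 29.96, 30.93 and 31.05 in Ly6Chigh and 27.70, 27.94 and 40 in Ly6Clow samples. The Ct of mmu-miR-503#, from a hairpin whose main strand belongs to the extended miR-16 family, was 29.91, 30.96 and 30.99 in Ly6Chigh and 28.02, 27.95 and 40 in Ly6Clow samples. In both assays the Ly6Clow value came first in mice 1 and 2 and was missing in mouse 3.

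A group of 5 opposite strands was detected in all 4 samples of mice 1 and 2 and listed at 40 in both samples of mouse 3. These were hsa-miR-183#, mmu-miR-376b#, hsa-miR-154#, mmu-miR-872# and mmu-miR-467e#. Among the other card B assays 15 had the same pattern, of 31 detected in all 4 samples of mice 1 and 2; among the opposite strands it was 5 of 12. miR-154 and miR-376b lie in the imprinted Dlk1-Dio3 locus, miR-467e lies in the rodent Sfmbt2 intron cluster, and miR-183 is best known from sensory organs. In all 5 assays the Ly6Clow sample had the lower Ct in both mice.

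The earliest signal of any opposite strand was that of hsa-miR-183# in mouse 2, with a Ct of 20.95 in the Ly6Chigh and 17.96 in the Ly6Clow sample. In mouse 1 it was 27.97 and 25.81. The level thus differed more between mice 1 and 2 than between the subsets of either mouse. The Ct of mmu-miR-376b# was 26.95 and 27.98 in the Ly6Chigh samples of mice 1 and 2, and 25.06 and 25.96 in the Ly6Clow samples. For hsa-miR-154# it was 27.96 and 29.96 in Ly6Chigh, and 27.31 and 28.99 in Ly6Clow samples. Here mouse 1 came before mouse 2, the reverse of hsa-miR-183#. The values of mmu-miR-872# were 29.99 and 30.01 in Ly6Chigh, and 27.07 and 26.98 in Ly6Clow samples. Those of mmu-miR-467e# were 30.97 and 28.99 in Ly6Chigh, and 28.86 and 27.97 in Ly6Clow samples.

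A further 9 opposite strands were detected in 3 or 4 samples. Of these, 4 were detected in both samples of mouse 2 and the Ly6Clow sample of mouse 1 and listed at 40 in the rest, namely hsa-miR-99b#, mmu-miR-10b#, mmu-miR-15a# and mmu-miR-297a#. The Ct of hsa-miR-148a# was 31.99, 40 and 30.97 in Ly6Chigh and 30.18, 29.98 and 40 in Ly6Clow samples, so the Ly6Chigh sample of mouse 2 and the Ly6Clow sample of mouse 3 lacked it. The Ct of hsa-miR-99b# was 40, 25.93 and 40 in Ly6Chigh and 34.15, 21.99 and 40 in Ly6Clow samples, an early signal in mouse 2. The Ct of hsa-miR-124#, the opposite strand of a miRNA of neurons, was 40, 40 and 32.98 in Ly6Chigh and 33.45, 31.98 and 35.01 in Ly6Clow samples. Its last value lay just past the limit, so it was detected in 2 of 3 Ly6Clow samples and in 1 of 3 Ly6Chigh samples.

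**Figure D2:**
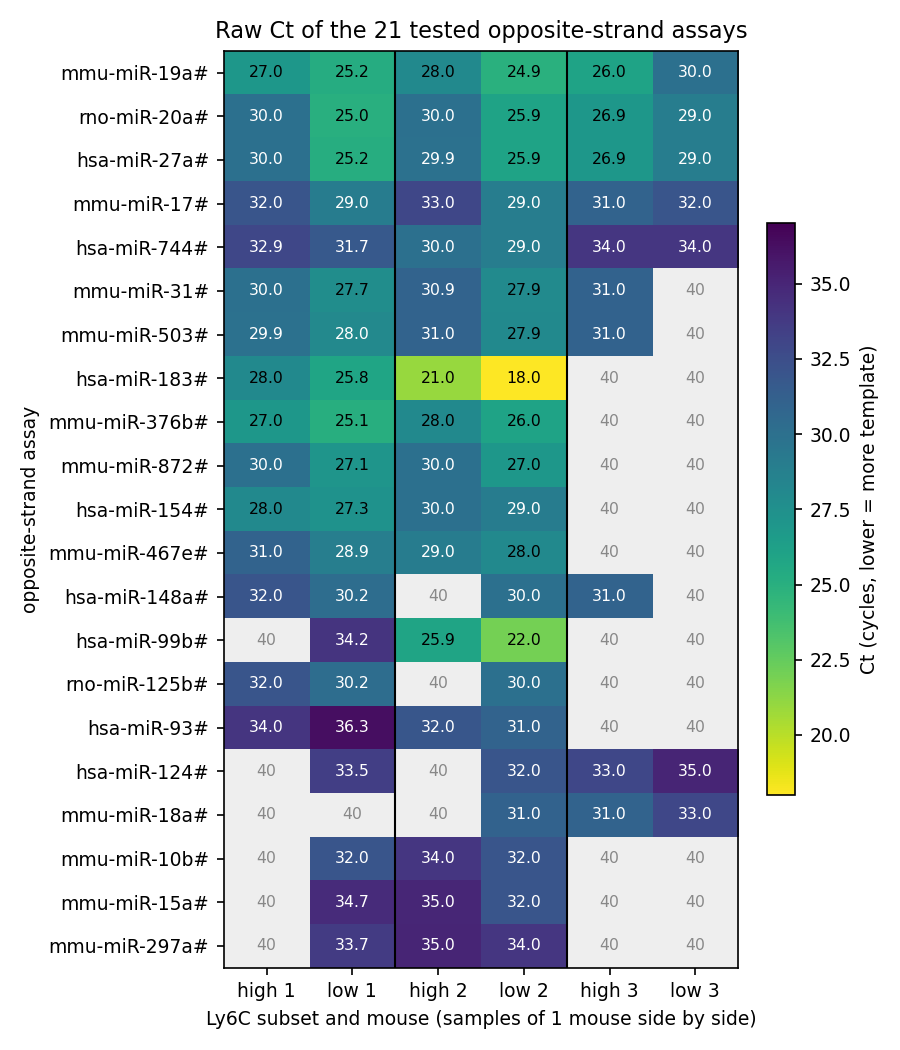
Raw Ct, in cycles, of the 21 opposite-strand assays detected in at least 3 samples (rows), with the samples of each mouse side by side (columns, high for Ly6Chigh and low for Ly6Clow); grey cells were listed at 40 and lighter colours mean a lower Ct. The grey block on the right holds the assays missing in both samples of mouse 3, and hsa-miR-183# in mouse 2 is the lightest pair.

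The remaining 33 detected assays were seen in 1 or 2 samples, with a median Ct of 31.98 over 50 detected reactions, against 29.97 over the 88 detected reactions of the 21 assays above. Some of them were early when they appeared. The Ct of mmu-let-7g# was 27.99 and 23.97 in the Ly6Chigh and Ly6Clow samples of mouse 2 and 40 elsewhere. mmu-miR-203#, of an epithelial miRNA, was at 29.98 and 25.98 in the same samples, and mmu-miR-300#, of the Dlk1-Dio3 locus, at 30.96 and 26.96. These examples were chosen after their values were seen.

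Grouped by hairpin, the clusters of miR-17, miR-106a and miR-106b had the most members found in all samples. Of their 11 opposite-strand assays 6 were detected at least once, 5 in at least 3 samples and 3 in all 6. The opposite strand hsa-miR-93# had a Ct of 34.03, 31.95 and 40 in Ly6Chigh and 36.33, 30.98 and 40 in Ly6Clow samples. That of miR-18a, mmu-miR-18a#, was at 40, 40 and 30.96 in Ly6Chigh and at 40, 31.00 and 32.97 in Ly6Clow samples, so that it was missing in both samples of mouse 1 and in the Ly6Chigh sample of mouse 2, unlike the strands of miR-17, miR-19a and miR-20a from the same precursor. mmu-miR-92a# was detected once, at 34.98 in the Ly6Clow sample of mouse 2, just under the limit. hsa-miR-106b#, hsa-miR-363#, rno-miR-25# and mmu-miR-20b# were not detected in any sample.

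Of 12 opposite strands of the Dlk1-Dio3 locus 7 were detected at least once and 2 in at least 3 samples. Of 8 let-7 opposite strands 3 were detected at least once and none in 3 samples; let-7 miRNAs restrain growth in differentiated cells. The miR-29 and miR-30 groups each had 1 assay detected, of 5 and of 4. In the group of miR-99, miR-100, miR-125 and miR-10, 3 of 6 assays were detected in at least 3 samples. In the immune group, which here held miR-21, miR-146b, miR-150 and miR-181a, 1 of 4 was detected at all. In particular mmu-miR-21# and mmu-miR-150#, whose main strands the study discusses in monocyte subsets, were not detected in any sample. The same held for hsa-miR-29a#, rno-miR-29c#, mmu-miR-130b# and rno-miR-99a#.

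Some assays that name the same arm under different species prefixes gave different answers. The assay rno-miR-20a# was detected in all 6 samples, while mmu-miR-20a# was listed at 40 in all 6. The assay rno-miR-125b# had a Ct of 31.99 in the Ly6Chigh sample of mouse 1 and of 30.20 and 29.98 in the Ly6Clow samples of mice 1 and 2, while mmu-miR-125b# was at 40 throughout. For miR-376a the human-prefix assay was detected in mouse 2 alone, at 29.94 and 28.98, and the mouse-prefix assay in the Ly6Clow sample of mouse 1 alone, at 33.76. An assay listed as rno-miR-17-3p on card A was read only in the Ly6Chigh sample of mouse 1, at 27.98, on the card that stands apart, whereas mmu-miR-17# was detected in every sample. For miR-20a, miR-125b and miR-376a, all on card B, an undetected assay was thus no sign that another assay named for the arm would also be blank. Whether such assays read the same sequence was not checked.

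The comparison of the subsets used the deposited ΔCt, the Ct minus that of the small RNA U6 on the same card. Levels are given as minus ΔCt, so that a higher value means more RNA and 1 unit is 1 log2 step. Of the 115 assays 21 passed the filter of a Ct under 35 in at least 3 of 6 samples, and they were fitted with limma together with all 201 miRNA assays that passed. Undetected reactions stayed at 40, which holds their level at a floor that moves with U6. None of the 21 opposite-strand assays was called at an adjusted p of 0.05, as 0% of all tested assays were. At an unadjusted p under 0.05 it was 0 of 21, with 0.995% of all tested assays, and the lowest unadjusted p of an opposite strand was 0.23. The lowest adjusted p was 0.985.

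No opposite strand had 3 Ly6Chigh levels above the 3 Ly6Clow levels, where 2.99% of all tested assays did, and none had them all below, where 2.49% did. The median difference over the 21, Ly6Chigh minus Ly6Clow, was -0.10 on the log2 scale, with 10 positive and 11 negative. Over all 201 tested assays it was -0.45, and over the other tested assays of card B it was -0.20. In data simulated at this size, limma called none of the assays changed by 4 log2 units. It called 32.8% of those changed by 8 and 73.8% of those changed by 16. The simulated samples were independent, without the pairing by mouse. In each run 40 of the 201 assays of both cards were raised in Ly6Chigh. Each assay had its measured spread, undetected reactions included. Changes of 4 log2 units were thus missed by the unpaired fit in that setting. The 21 opposite strands alone and the fit with the mouse as a block were not simulated.

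The opposite strands of miR-503 and miR-31 had the highest differences. The level of mmu-miR-503# was -6.16, -6.10 and -9.83 in Ly6Chigh and -6.63, -7.92 and -17.29 in Ly6Clow samples, a log2 difference of 3.25 (SE 3.22, limma adjusted p = 0.985). The level of mmu-miR-31# was -6.22, -6.07 and -9.89 in Ly6Chigh and -6.31, -7.91 and -17.29 in Ly6Clow samples, a difference of 3.11 (SE 3.27). Both rested on the undetected Ly6Clow sample of mouse 3, without which the differences were -0.092 and -0.28. hsa-miR-93# followed at 2.31 (SE 3.51), mmu-miR-19a# at 1.61 (SE 1.63) and hsa-miR-154# at 1.33 (SE 4.96).

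The level of mmu-miR-19a# was -3.23, -3.12 and -4.83 in Ly6Chigh and -3.82, -4.92 and -7.28 in Ly6Clow samples. It was higher in Ly6Chigh in each mouse, by 0.59, 1.80 and 2.44, of which the first is finer than a cycle. The 3 levels of a subset overlapped those of the other. Without normalization to U6 its mean difference turned to -0.26.

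At the other end stood hsa-miR-124#, with levels of -16.25, -15.14 and -11.83 in Ly6Chigh and -12.06, -11.96 and -12.30 in Ly6Clow samples. Its difference of -2.30 (SE 1.72) rested on undetected Ly6Chigh reactions in mice 1 and 2. It was followed by rno-miR-125b# at -2.06 (SE 3.61), mmu-miR-10b# at -1.47 (SE 3.21), hsa-miR-99b# at -1.39 (SE 6.03) and mmu-miR-15a# at -0.90 (SE 2.83). The last 4 of these differences were smaller than their SEs in this unpaired fit. With the mouse as a block the SE of rno-miR-125b# was 1.66, smaller than its difference.

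Among the strands found in all samples, the differences of rno-miR-20a#, hsa-miR-27a# and mmu-miR-17# were -0.45, -0.38 and -0.10, with SEs from 1.46 to 1.52, and that of hsa-miR-744# was 1.12 (SE 2.33). The remaining named assays lay between mmu-miR-18a# at -0.45 and hsa-miR-148a# at 0.94, with mmu-miR-872# at -0.11, hsa-miR-183# at 0.16, mmu-miR-376b# at 0.57 and mmu-miR-467e# at 0.83. For hsa-miR-183# the SE was 7.30, since its levels ran from -18.85 to 3.91 among the Ly6Chigh samples and from -17.29 to 2.06 among the Ly6Clow samples. That spread lay between mice, and with the mouse as a block the SE was 1.34. All SEs given here are those of the unpaired fit over both cards unless a block or a left-out card is named. With card A of the Ly6Chigh sample of mouse 1 left out, the differences of the opposite strands stayed the same but their SEs changed. Those of mmu-miR-17# and mmu-miR-19a# fell to 0.88 and 1.17, while that of hsa-miR-183# rose to 7.61.

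Within a mouse the picture was more even, and it differed from mouse to mouse. In mouse 2 all 17 tested opposite strands detected in both samples were higher in the Ly6Chigh sample, by 0.81 to 3.86 with a median of 1.84. In mouse 1 it was 10 of 14, with a median of 0.35, and in mouse 3 it was 4 of 6, with a median of 0.45. Of the 9 tested opposite strands with a reaction under 40 in every mouse, 3 were higher in Ly6Chigh in all 3 mice and 0 were lower in all 3. The 3 were mmu-miR-19a#, mmu-miR-31# and mmu-miR-503#, with mouse 1 differences of 0.59, 0.090 and 0.47, finer than the step of about a cycle. In mouse 3 the differences of mmu-miR-31# and mmu-miR-503# rested on an undetected Ly6Clow reaction. The same count over all tested assays is not given here, so no shared direction can be read from it. The other 12 were at 40 in both samples of a mouse, where their difference equals that of U6.

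These directions hang on U6. The U6 Ct on card B was higher in the Ly6Chigh than in the Ly6Clow sample by 2.35 and 4.83 cycles in mice 1 and 2, and lower by 1.56 cycles in mouse 3 (a difference of -1.56). In raw Ct, with the sign turned, all 14 strands of mouse 1 and all 17 of mouse 2 were lower in the Ly6Chigh sample, with medians of -2.00 and -2.99. In mouse 3, 5 of 6 were higher and the median was 2.01. Whether U6 or the miRNAs held steady between the subsets was not tested.

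**Figure D3:**
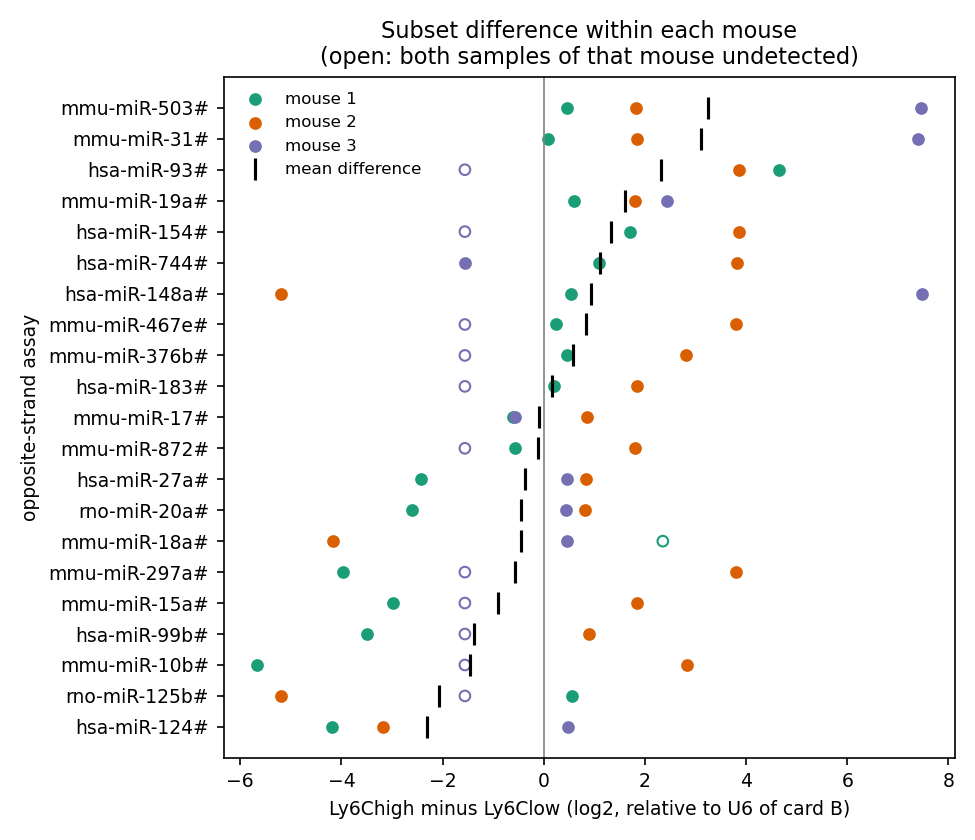
Ly6Chigh minus Ly6Clow level, in log2 units relative to U6 of card B, of the 21 tested opposite-strand assays in each mouse (coloured points) and on average (black ticks); open points mark assays at 40 in both samples of that mouse. The filled points of mouse 2 lie right of zero wherever both samples were detected, and the open points of mouse 3 all lie at -1.56, the difference of U6 itself.

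Each opposite strand was then set beside the main strand of its hairpin. A main-strand assay of the same name without # was found for 108 of the 115, in 61 cases with the same prefix, in 36 with another prefix and in 11 after a locus number was dropped, and it lay on card A in 98 pairs. The gap between strands is the level of the opposite strand minus that of the main strand, each relative to U6 of its card. Since assays differ in how well they amplify, a gap of a few cycles between different assays need not be a difference in molecules.

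In most pairs where only a single strand was found, it was the main strand. The main strand alone was detected in 40, 47 and 50 pairs of the Ly6Chigh samples and in 48, 37 and 48 pairs of the Ly6Clow samples. The opposite strand alone was detected in 10, 15 and 4 pairs in Ly6Chigh and in 8, 14 and 0 pairs in Ly6Clow samples. Both were detected in 5, 14 and 8 pairs in Ly6Chigh and in 14, 31 and 7 pairs in Ly6Clow samples. The third mouse thus had the fewest opposite strands without a main strand, in both subsets.

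In many pairs the main strand was found without its opposite strand. A main strand can count in several pairs, as those of miR-30c and miR-29b did. Of 31 pairs with the main strand detected in all 6 samples, 18 had an opposite strand that was never detected. With the Ly6Chigh sample of mouse 1 left out, it was 25 of 46 such pairs, and 5 had an opposite strand detected in all 5 samples. Of all 115 opposite-strand assays 61 were never detected, and whether these shares differ was not tested. The main strand of miR-21 had a Ct of 19.97 to 24.95 over the 6 samples, that of miR-30c 20.95 to 24.98 and that of miR-150 20.96 to 29.98, while mmu-miR-21#, hsa-miR-30c-2# and mmu-miR-150# were not detected. The miR-30c main strand was also paired with hsa-miR-30c-1#, read at 31.98 and 29.99 in the Ly6Chigh and Ly6Clow samples of mouse 2. For miR-29b, rno-miR-29b-1# was read at 33.98 and 32.98 in the Ly6Clow samples of mice 2 and 3. In the Ly6Clow sample of mouse 2, 15 of 32 opposite strands were detected where the main strand was under 25, and 14 of 40 where it was not detected. In the Ly6Clow samples of mice 1 and 3 the numbers were 6 of 28 against 8 of 46, and 2 of 15 against 0 of 53. In the Ly6Chigh samples of mice 1, 2 and 3 they were 1 of 10 against 10 of 63, 2 of 11 against 15 of 47, and 3 of 26 against 4 of 50. The share was thus higher beside a high main strand in 4 of 6 samples and lower in the Ly6Chigh samples of mice 1 and 2, with no test made.

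Over the pairs with both strands detected, the median gap was 3.09, 0.20 and -3.65 in the Ly6Chigh samples of mice 1, 2 and 3 and -0.78, -3.71 and -2.21 in the Ly6Clow samples. The pairs behind it differed from sample to sample, and 1 pair, that of miR-19a, counted in all 6. The mean of the sample medians was -0.12 ± 3.38 (SD, n = 3) in Ly6Chigh and -2.23 ± 1.46 (SD, n = 3) in Ly6Clow samples, a difference of 2.12 (2-sided exact permutation p = 0.4). Scaling each card to the median of its tested assays turned this difference to -1.91, and leaving out card A of the Ly6Chigh sample of mouse 1 brought it to 0.51.

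For miR-17 the main strand was the higher in every sample that had both. The Ct of mmu-miR-17 was 22.98 and 21.95 in the Ly6Chigh samples of mice 2 and 3 and 21.96, 22.00 and 24.97 in the Ly6Clow samples, and the gap of mmu-miR-17# ran from -9.78 to -5.48 in these 5 samples. For miR-20a the gap of the rat-prefix rno-miR-20a# to the mouse-prefix main strand ran from -3.77 to -0.43 in the same samples. The mouse-prefix mmu-miR-20a# was at 40 in all 6 samples, so that pair had the main strand only. For miR-18a the gap ran from -3.60 to -2.19 in 3 samples. For miR-27a, with the human-prefix hsa-miR-27a#, the gap was -1.79 and -2.63 in Ly6Chigh, and 1.34, -1.74 and -2.21 in Ly6Clow samples. In miR-19a the strands were close, with a gap of 3.08, 0.22 and 0.37 in Ly6Chigh and of 1.33, -0.70 and -1.22 in Ly6Clow samples.

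In 9 pairs the opposite strand had the lower raw Ct in at least 3 samples, counting those where the main strand was not detected. They were the pairs of miR-31, miR-503, miR-154, miR-183, miR-376b, miR-467e, miR-872, miR-10b and miR-19a. For miR-19a the Ct of the opposite minus the main strand was -0.017 and -0.034 in the Ly6Chigh and Ly6Clow samples of mouse 2, too small to read. Its other lower value, by -1.99, was in the Ly6Chigh sample of mouse 1, whose card A stands apart. Without that sample there were 8 pairs, with miR-19a left out at 2 samples, both of them these near ties. The main strand of miR-154 was at 40 in all 6 samples, beside an opposite strand at 27.31 to 29.96 in mice 1 and 2. The main strand of miR-376b was read once, at 31.00 in the Ly6Chigh sample of mouse 1, and that of miR-10b once, at 21.97 in the same sample.

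For miR-183 the main strand was at 31.95 in the Ly6Chigh sample of mouse 1 and at 34.91 in the Ly6Clow sample of mouse 2, where the opposite strand came at 17.96, a gap of 16.21. The main strand of miR-31 was detected in mouse 2 alone, at 32.98 and 31.97, and that of miR-503 once, at 30.99 in the Ly6Clow sample of mouse 1. That of miR-467e was detected in mouse 2 alone, at 32.08 and 29.99. miR-872 went both ways. In mouse 3 its main strand was detected, at 29.95 and 31.95, and its opposite strand was not, while in the other samples with both the gap was 3.14, 5.50 and 2.24. The assays for miR-154 and miR-183 have a human prefix on the opposite strand and a mouse prefix on the main strand.

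**Figure D4:**
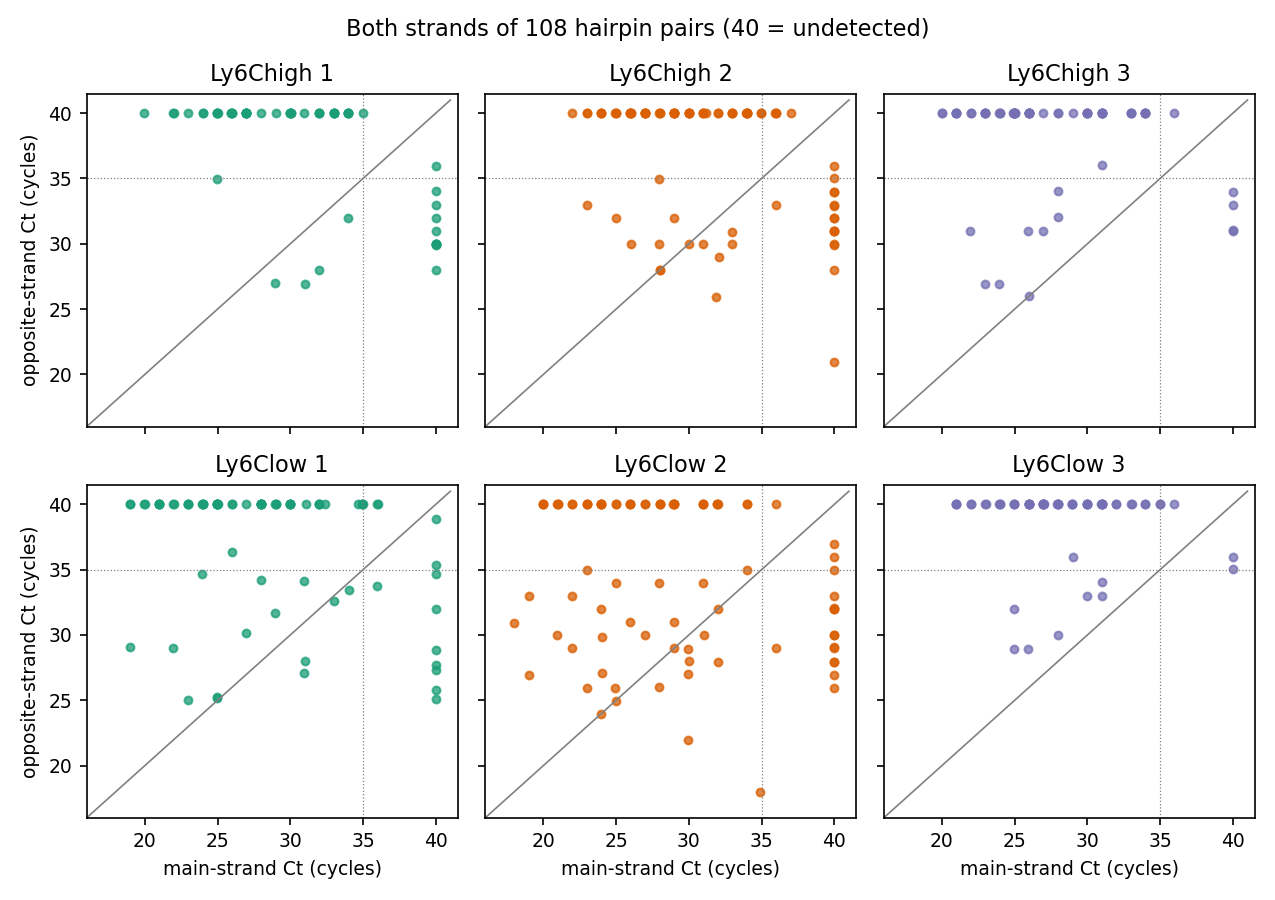
Raw Ct in cycles of the main strand (horizontal) and of the opposite strand (vertical) for the 108 hairpin pairs in each sample, leaving out pairs at 40 on both; the diagonal marks equal Ct, dotted lines the limit of 35, and points along the edges at 40 are undetected on that strand. Most points lie along the top edge, main strand only, and the point at the lowest opposite-strand Ct, 17.96 in Ly6Clow 2, is miR-183.

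In 12 pairs both strands passed the filter, so that their subset differences could be set side by side. The signs were the same in 7, and in 4 when card A of the Ly6Chigh sample of mouse 1 was left out. For miR-17 the opposite strand differed by -0.10 and the main strand by -3.46 (SE 5.05), which turned to 2.40 without that card. For miR-18a the values were -0.45 and 3.85 (SE 2.10), and the latter was 1.87 without that card. For miR-19a they were 1.61 and 0.20 (SE 1.57), or 0.88 without it. None of these main strands passed the test, and the difference between the strands was not tested.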

How the data were processed

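Total RNA of each sample was reverse transcribed with Megaplex rodent stem-loop primers, preamplified and read on TaqMan low-density arrays, per the labels. The deposited tables hold raw Ct, a log2 scale with the sign turned, and ΔCt on the same log2 scale, from which the authors had subtracted the U6 Ct of the same sample and card (checked: within 0.011 cycles of the mean of the U6 wells). How Ct was called is not given in the sources used here. Another table holds the authors' within-mouse ratios, which were not used. Of 768 wells 18 were controls. Depth does not apply; the step of about a cycle and 3 samples per subset limit the precision.

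Groups and mice came from the sample labels. Assays detected (Ct below 35) in 3 samples or more were tested on minus ΔCt with limma 3.58.1 in R 4.3.3 (lmFit, eBayes), with Benjamini-Hochberg adjustment over all 201; single values per sample were compared by exact permutation (scipy 1.17.1). The mouse number pairs the samples because both come from the same animal. Deviations of paired samples from their subset means correlated at 0.76 to 0.79 over the 74 tested card B assays, against -0.60 to -0.23 between mice, which the subset means push below 0. The mouse as a block was an alternative. The unpaired limma fit was tested on simulated data without pairing. Named assays were those detected in all 6 samples, the 5 highest and 5 lowest differences, any with subsets that did not overlap, those before their main strand in at least 3 samples, and opposite strands of miRNAs that the study lists or names as their cluster partners. Members and lists were chosen with earlier results of these data known. Alternatives were other normalizations, filters, floors, detection limits and left-out samples, mice or cards.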

Additional observations from a re-analysis of the deposited data

Results flagged for a closer look

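A signal appeared outside the main measurement in the plant control assay, which has no target in the mouse. Its Ct was 33.97 on card B of the Ly6Clow sample of mouse 2, just under the detection limit of 35, and 40 on the other cards. The part of such background in the opposite-strand values of that sample was not tested.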

How the results depend on the processing

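No opposite strand passed the limma threshold under any of the 20 other settings of the fit. With the mouse as a replicate block the differences were the same by construction. The median stayed at -0.10, 0 assays were called, and the mean within-mouse difference in the number detected was -7.33. The block changed no call, though some SEs were far smaller, such as that of hsa-miR-183# (1.34 against 7.30). The median difference moved to -1.98 without normalization and to 1.88 without the filter, where most assays are at 40 and the value is close to that of U6; with samples or mice left out it ran from -1.95 (without the Ly6Clow sample of mouse 3) to 2.01 (without the Ly6Chigh sample of mouse 3). The subset difference in the number detected ran from -17.2 (without the Ly6Clow sample of mouse 3) to 3.83 (without the Ly6Clow sample of mouse 2). The difference in the median strand gap ran from 0.51 to 3.89 with samples or mice left out and turned to -1.91 when cards were scaled to the median of tested assays.

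Single differences turned in sign in 79 refits of the 20 named and tested assays, and the cause was not tested. With the Ct floor at 35, hsa-miR-124# came to 1.03, hsa-miR-99b# to 0.28, mmu-miR-10b# to 0.20, mmu-miR-15a# to 0.77 and mmu-miR-18a# to 1.21. With undetected reactions left out as missing, the same 5 came to 0.18, 6.29, 2.15, 2.50 and 0.81, and mmu-miR-31# to -0.28, mmu-miR-503# to -0.092, mmu-miR-872# to 0.61 and rno-miR-125b# to 1.14. Without normalization, hsa-miR-148a# came to -0.93, hsa-miR-154# to -0.54, hsa-miR-183# to -1.71, hsa-miR-744# to -0.76, mmu-miR-19a# to -0.26, mmu-miR-376b# to -1.30 and mmu-miR-467e# to -1.04. Scaled to the median of tested assays, hsa-miR-148a# came to -0.63, hsa-miR-154# to -0.23, hsa-miR-183# to -1.41, hsa-miR-744# to -0.45, mmu-miR-376b# to -0.997 and mmu-miR-467e# to -0.74. Scaled to the mean of assays detected in all samples, hsa-miR-183# came to -0.42 and mmu-miR-376b# to -0.0065.

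With samples or mice left out, the ranges were -2.32 to 4.01 for hsa-miR-148a#, -1.95 to 6.06 for hsa-miR-154#, -5.21 to 6.39 for hsa-miR-183#, -0.98 to 0.64 for hsa-miR-27a#, -0.85 to 3.02 for hsa-miR-744# and -0.18 to 5.70 for hsa-miR-93#. They were -6.88 to 2.97 for hsa-miR-99b#, -4.28 to 0.64 for mmu-miR-10b#, -3.38 to 0.99 for mmu-miR-15a#, -0.58 to 0.45 for mmu-miR-17#, -3.12 to 1.40 for mmu-miR-18a# and -0.28 to 5.21 for mmu-miR-31#. They were -3.59 to 5.80 for mmu-miR-376b#, -2.36 to 5.22 for mmu-miR-467e#, -0.092 to 5.24 for mmu-miR-503#, -3.77 to 4.27 for mmu-miR-872#, -4.98 to 0.32 for rno-miR-125b# and -1.08 to 0.63 for rno-miR-20a#. Where a subset was left with fewer samples, the spread in limma was still pooled over both subsets.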
